A study of Homo sapiens with 6 samples.

Results

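The genes described here are 9 direct transcriptional targets of p53, namely MDM2, TP53I3, TP53INP1, RRM2B, SESN1, ZMAT3, BTG2, GDF15 and FDXR, out of 22439 genes named on the array. They were chosen by name, with earlier results of these data known. Their probes were found by the RefSeq accession printed on the array for each gene probe. This gave 14 of 58201 probes, with 3 for MDM2, 2 each for TP53I3, TP53INP1 and RRM2B, and 1 each for the other genes. All 14 were well above background on all 6 arrays, and none was saturated.

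RNA came from AGS cells, an established human gastric adenocarcinoma line, taken 48 h after transfection. The si-Control group received a nontargeting siRNA and the si-C1GALT1-3 group received 1 of the siRNAs against C1GALT1, the galactosyltransferase that builds the core 1 O-glycan on glycoproteins. Both groups were grown in RPMI medium with fetal bovine serum and consisted of 3 samples, each on a one-colour Agilent array. A single siRNA sequence was used on the arrays, so effects of its target and of its sequence cannot be told apart. The comparison addresses how gene expression in gastric cancer cells differs after C1GALT1 knockdown. The labels do not say whether the samples came from separate cultures, so p-values measure the spread between these samples, which may be technical.

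The transcription factor p53 is held at a low level by MDM2, a ubiquitin ligase that marks it for degradation. When DNA damage or other stress releases it, p53 binds a response element made of paired copies of a short consensus and raises genes for cell cycle arrest, DNA synthesis and repair, redox defence and apoptosis. MDM2 itself is a p53 target, which closes a negative feedback loop.

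Same-numbered arrays of the groups shared a slide, with si-Control always in slide column 1 and si-C1GALT1-3 in column 2, so slide position and treatment cannot be told apart. The share of gene spots well above background ran from 66.2% to 72.7% over the arrays. One rectangle of si-Control array 2, with 15.9% of its gene spots, was dark, with a median deviation of -2.19 on the log2 scale from the other arrays, and was set to missing. C1GALT1 had log2 signals of 12.22, 13.03 and 12.62 on si-Control arrays 1, 2 and 3 against 11.76, 11.98 and 11.13 on si-C1GALT1-3 arrays 1, 2 and 3. It was lower on every si-C1GALT1-3 array, with a log2 fold change of -1.0 (SE 0.31, limma adjusted p = 0.265), which did not pass the study's threshold of p under 0.01 with a 2-fold change. Of the epithelial markers, EPCAM, KRT8, KRT18, KRT19 and CLDN4 were well above background on all 6 arrays and CDH1 on 5. The same flag was also set on all 6 arrays for 3 of 4 leukocyte, 2 of 3 fibroblast and 2 of 3 endothelial markers, while DCN and PECAM1 were above background on 1 and 2 arrays. Of these, COL3A1 had group means of 8.92 in si-Control and 10.09 in si-C1GALT1-3, and VWF of 9.90 and 8.88, and neither passed p under 0.01 with 2-fold. The part of these markers in the results was not tested.

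TP53I3 had the largest difference of the 9 genes, and BTG2 and ZMAT3 were the other genes whose groups did not overlap. Signals of 6 genes were higher and of 3 lower on average in si-C1GALT1-3, with a median log2 fold change of 0.50, beside -0.0047 over all probes tested and 0.019 over all named genes. That median was 0.19 without si-C1GALT1-3 array 3, and 0.39 with the dark rectangle widened, which touches FDXR, the gene at the median. None of the 9 passed p under 0.01 and 2-fold in either direction, where 1.65% of 58193 probes passed higher and 0.992% lower, and the smallest adjusted p of limma among their brightest probes was 0.321. At an unadjusted p under 0.05 stood both probes of TP53I3 and the dimmer one of RRM2B among the 14, beside 8028 of 58193 probes. With the replicate number as a block TP53I3, alone of the 9, passed p under 0.01 and 2-fold, where 1.74% of all probes passed higher. SEs and intervals are those of the fit without the block unless it is named. The block gave smaller SEs for most of the 9 genes and a larger one for TP53INP1 (0.39 against 0.33). Groups were apart, with every si-C1GALT1-3 array above every si-Control array, for 3 of the 9 genes, while 11.0% of all probes were apart in that direction. No gene was apart in the other direction by its brightest probe, where 10.4% of all probes were. Counted by gene, 3146 of 22438 named genes were apart in the higher direction and 2521 in the lower. Past p under 0.01 and 2-fold were 466 of these named genes higher and 299 lower. For a gene with several probes the brightest on average stands for it, and levels of different probes are not compared. In RNA from whole cultures, a change per cell and a change in the share of cells that express a gene cannot be told apart.

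**Figure D1:**
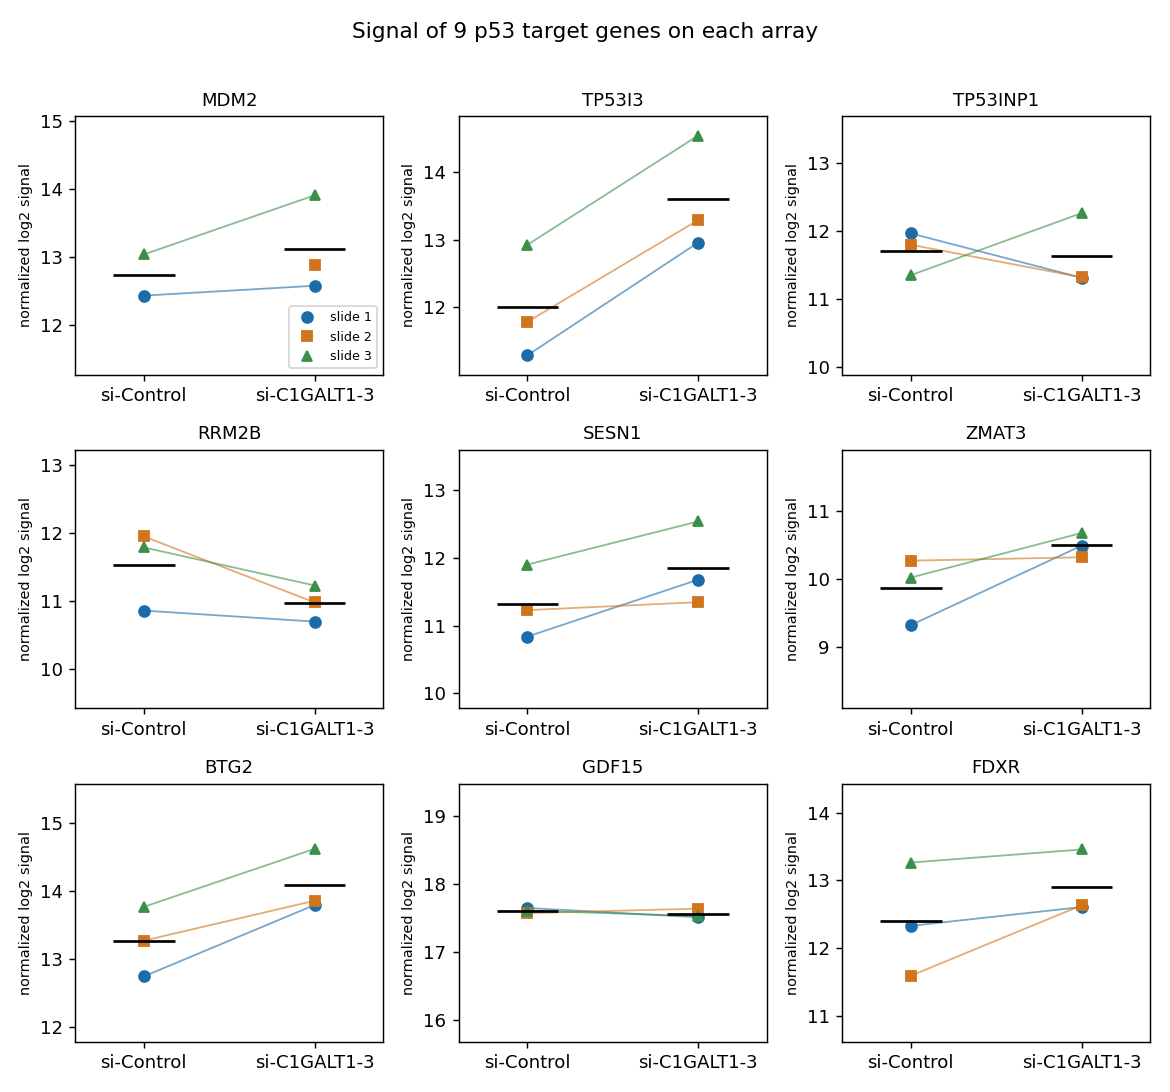
Normalized log2 signal of the brightest probe of each gene (vertical axis, spanning the same number of log2 units in every panel) in the si-Control and si-C1GALT1-3 groups, with 1 point per array, lines joining arrays of the same slide and black bars for group means. TP53I3, ZMAT3 and BTG2 are the panels in which all si-C1GALT1-3 points lie above all si-Control points, and MDM2 lacks a point for si-Control array 2.

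MDM2 has a promoter inside its first intron that answers to p53, and this upstream stretch is shown because the feedback loop runs through it. The 250 bases before that start, chr12:68808767-68809016 of GRCh38.p14 on the plus strand, are given from RefSeq. Capitals mark each match to the p53 half-site consensus in which the 4 central bases are exact and at most 1 other base differs.
MDM2 intronic promoter: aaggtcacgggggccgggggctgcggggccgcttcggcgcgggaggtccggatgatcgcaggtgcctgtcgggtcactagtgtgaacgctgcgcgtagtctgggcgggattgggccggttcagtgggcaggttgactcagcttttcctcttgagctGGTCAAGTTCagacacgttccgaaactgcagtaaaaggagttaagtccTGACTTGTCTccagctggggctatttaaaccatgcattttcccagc
The matches begin at positions -94 and -46 from the start of transcription. Copies that depart further from the consensus are not marked.

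The brightest MDM2 probe (A_33_P3361707) gave log2 signals of 12.43 and 13.03 on si-Control arrays 1 and 3 against 12.57, 12.88 and 13.90 on si-C1GALT1-3 arrays 1, 2 and 3. The highest value belonged to si-C1GALT1-3 array 3 and the groups overlapped. Its spot lay in the dark rectangle of si-Control array 2, and limma's fit on the 5 remaining arrays gave a log2 fold change of 0.39 (SE 0.47, adjusted p = 0.782, 95% interval -0.85 to 1.63). With the rectangle kept, that array read 10.03 and the fold change became 1.28. In the fit with the replicate block it was 0.51 (SE 0.27, limma adjusted p = 0.457). Without si-C1GALT1-3 array 3 it was -0.0034, so this probe has no settled direction.

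The other MDM2 probes lay outside the rectangle. Probe A_23_P502750 read 8.83, 9.90 and 9.81 on si-Control arrays against 9.49, 9.91 and 10.85 on si-C1GALT1-3 arrays. Probe A_24_P925664 read 8.73, 8.93 and 9.78 on si-Control arrays against 9.29, 9.35 and 10.81 on si-C1GALT1-3 arrays. The groups overlapped for both, because si-Control array 3 was above si-C1GALT1-3 arrays 1 and 2 of the second and si-Control arrays 2 and 3 above array 1 of the first. Their log2 fold changes were 0.57 (SE 0.46) and 0.67 (SE 0.51), and 0.19 and 0.17 without si-C1GALT1-3 array 3. Within slides 1, 2 and 3 the first of them was higher by 0.67, 0.01 and 1.04 and the second by 0.55, 0.41 and 1.03. Fitted with the replicate block, these probes had SEs of 0.25 and 0.18 (limma adjusted p = 0.350 and 0.239).

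TP53I3 encodes a quinone oxidoreductase-like enzyme linked to the generation of reactive oxygen species. Its brightest probe (A_33_P3392077) read 11.30, 11.79 and 12.92 on si-Control arrays 1, 2 and 3 against 12.96, 13.29 and 14.53 on si-C1GALT1-3 arrays 1, 2 and 3. Every si-C1GALT1-3 array was above every si-Control array, although the gap between si-Control array 3 and si-C1GALT1-3 array 1 was small. The log2 fold change was 1.59 (SE 0.58, limma adjusted p = 0.321), a 3.01-fold higher signal. Within slides 1, 2 and 3 the difference was 1.66, 1.50 and 1.61, a narrower spread than that between arrays of 1 group. With the replicate number as a block the same log2 fold change had an SE of 0.11 and an adjusted p of 0.180 in limma, and it passed p under 0.01 and 2-fold. In that fit 1.74% of all probes passed higher, and TP53I3 was the only one of the 9 genes to pass. Its value ran from 1.12 without si-C1GALT1-3 array 3 to 2.04 without si-Control array 3.

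The second TP53I3 probe (A_23_P5392) read 11.18, 11.79 and 12.87 on si-Control arrays against 12.82, 13.06 and 14.40 on si-C1GALT1-3 arrays. Here si-Control array 3 was slightly above si-C1GALT1-3 array 1, so the groups overlapped. The log2 fold change was 1.48 (SE 0.59, limma adjusted p = 0.358) and, with the replicate number as a block, the SE was 0.14 and the adjusted p 0.180, and it passed there too. The within-slide differences of 1.65, 1.26 and 1.53 again lay close to each other.

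FDXR is the mitochondrial ferredoxin reductase that passes electrons to ferredoxins for steroid and iron-sulphur cluster synthesis. Its probe (A_23_P38154) read 12.33, 11.60 and 13.26 on si-Control arrays 1, 2 and 3 against 12.61, 12.63 and 13.46 on si-C1GALT1-3 arrays 1, 2 and 3. The lowest value was that of si-Control array 2, and the groups overlapped. The log2 fold change was 0.50 (SE 0.48, limma adjusted p = 0.700, 95% interval -0.68 to 1.69). Fitted with the replicate block, it had an SE of 0.23 (limma adjusted p = 0.363). On si-Control array 2 the spot lay 1 column outside the dark rectangle. Within the rectangle's rows, that column had a median deviation of -0.84 from the other si-Control arrays before normalization. The spot itself deviated by -1.29, and its 10 nearest neighbours in that column by a median of -0.53. With the rectangle widened by 10 rows and columns on each side, the log2 fold change was 0.10, and without si-Control array 3 it was 0.93. The within-slide differences were 0.28, 1.04 and 0.19, and the high one is that of slide 2.

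SESN1, a sestrin, restrains mTORC1 and takes part in the defence against oxidants. Its probe (A_23_P93562) read 10.84, 11.23 and 11.90 on si-Control arrays against 11.68, 11.34 and 12.53 on si-C1GALT1-3 arrays. The groups overlapped, although each si-C1GALT1-3 array was above the si-Control array of its slide, by 0.84, 0.12 and 0.64. SESN1 had a log2 fold change of 0.53 (SE 0.41, limma adjusted p = 0.632, 95% interval -0.48 to 1.54). The replicate block gave it an SE of 0.19 (limma adjusted p = 0.304). Without si-C1GALT1-3 array 3 the fold change was 0.19 and without si-Control array 3 it was 0.81.

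SESN1 and FDXR are the members with an exact p53 half-site consensus in a promoter window, and 30 bases around each match are shown for that reason, with the match in capitals. SESN1 is read on the minus strand of chr6:109009018-109009047 and FDXR on the minus strand of chr17:74872986-74873015, both in GRCh38.p14 and from RefSeq.
SESN1: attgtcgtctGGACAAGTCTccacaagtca
FDXR: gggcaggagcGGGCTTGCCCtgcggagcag
The matches begin at positions -49 and -11 from the start of transcription.

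The RefSeq table held promoter windows of 300 bases, 250 before and 50 after a start, for 7 of the 9 genes, and had 14 such windows, some of them overlapping. Both strands were searched, which is the same search here because the consensus is its own reverse complement. An exact match was found in 2 of 14 windows, beside 6.63% of 35116 windows of all genes. A match with at most 1 mismatch outside the central bases was found in 9 of 14 windows, beside 32.6% of all windows. A pair of such matches with 0 to 13 bases between them was found in no window of these genes, beside 0.897% of all. That rule misses any pair in which a copy has a changed central base or more than 1 mismatch. The count therefore does not show that paired elements are absent, in the MDM2 intronic promoter or elsewhere. The windows of TP53I3, ZMAT3 and BTG2 held no match, which says only that these letters are not in these windows. These counts are a description of short windows and not of binding.

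RRM2B is the p53-induced small subunit of ribonucleotide reductase, the enzyme that makes deoxyribonucleotides. Its brightest probe (A_33_P3323384) read 10.86, 11.95 and 11.79 on si-Control arrays 1, 2 and 3 against 10.69, 10.98 and 11.22 on si-C1GALT1-3 arrays 1, 2 and 3. The groups overlapped, with si-Control array 1 below si-C1GALT1-3 arrays 2 and 3. The log2 fold change was -0.56 (SE 0.33, limma adjusted p = 0.520, 95% interval -1.39 to 0.26). It was -0.90 without si-Control array 1 and -0.36 without si-Control array 2. The differences within slides 1, 2 and 3 were -0.16, -0.97 and -0.56. For this probe the replicate block gave an SE of 0.21 (limma adjusted p = 0.304).

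The second RRM2B probe (A_23_P20225) read 9.30, 9.81 and 9.68 on si-Control arrays against 9.06, 8.93 and 9.01 on si-C1GALT1-3 arrays. All si-C1GALT1-3 arrays were below all si-Control arrays. Its log2 fold change was -0.60 (SE 0.17, limma adjusted p = 0.244), which is under 2-fold. Within slides 1, 2 and 3 it differed by -0.24, -0.88 and -0.68, so both probes were lower on each slide. RRM1, the large subunit that both small subunits share, had a log2 fold change of -0.79 (SE 0.17, limma adjusted p = 0.160), and RRM2, the small subunit of S phase, one of -0.62 (SE 0.45), and neither passed p under 0.01 with 2-fold. Without si-Control array 1 RRM2 stood at -1.14 and passed, and without si-Control array 3 it stood at -0.32. On slide 1 RRM2 was higher in si-C1GALT1-3, by 0.31. RRM2B and RRM2 are related in sequence, and whether the probes tell them apart was not tested.

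BTG2 is an antiproliferative protein of the BTG/TOB family that recruits the CCR4-NOT deadenylase to messenger RNAs. Its probe (A_23_P62901) read 12.74, 13.27 and 13.77 on si-Control arrays 1, 2 and 3 against 13.80, 13.86 and 14.62 on si-C1GALT1-3 arrays 1, 2 and 3. The groups were apart by a small margin, between si-Control array 3 and si-C1GALT1-3 array 1. BTG2 had a log2 fold change of 0.83 (SE 0.35, limma adjusted p = 0.381), a 1.78-fold higher signal. Within slides 1, 2 and 3 BTG2 was higher by 1.05, 0.59 and 0.85. With the replicate number as a block BTG2 had an SE of 0.15 and an adjusted p of 0.191 in limma, and the change stayed under 2-fold.

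ZMAT3 is a zinc finger protein that binds RNA and affects splicing and message stability. Its probe (A_23_P113283) read 9.32, 10.27 and 10.02 on si-Control arrays 1, 2 and 3 against 10.49, 10.32 and 10.68 on si-C1GALT1-3 arrays 1, 2 and 3. The groups were apart by a small margin, between si-Control array 2 and si-C1GALT1-3 array 2 of the same slide. For ZMAT3 the log2 fold change was 0.63 (SE 0.28, limma adjusted p = 0.400), and 0.35 without si-Control array 1. The differences within slides 1, 2 and 3 were 1.17, 0.05 and 0.66, so slide 2 held nearly none of it.

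TP53INP1 is a stress-induced nuclear protein that acts with p53 in apoptosis and in autophagy, and its probes disagreed. The brightest probe (A_23_P168882) read 11.97, 11.80 and 11.35 on si-Control arrays 1, 2 and 3 against 11.32, 11.32 and 12.27 on si-C1GALT1-3 arrays 1, 2 and 3. It was lower within slides 1 and 2, by -0.65 and -0.48, and higher within slide 3, by 0.91, for a log2 fold change of -0.07 (SE 0.33, limma adjusted p = 0.963). The other probe (A_33_P3421163) read 7.99, 8.99 and 8.67 on si-Control arrays against 9.19, 9.06 and 9.82 on si-C1GALT1-3 arrays. Its groups were apart, with a log2 fold change of 0.81 (SE 0.34, limma adjusted p = 0.376) and within-slide differences of 1.20, 0.07 and 1.15. Without si-Control array 1 this fold change was 0.53, and without si-Control array 2 it was 1.03. The gene therefore has no settled direction on these arrays.

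GDF15 encodes a secreted cytokine of the TGF-beta family that rises in many kinds of cell stress. Its probe (A_23_P16523) read 17.64, 17.57 and 17.61 on si-Control arrays 1, 2 and 3 against 17.51, 17.63 and 17.52 on si-C1GALT1-3 arrays 1, 2 and 3. The groups overlapped and all 6 values lay close together. The log2 fold change was -0.05 (SE 0.12, limma adjusted p = 0.913), and its 95% interval of -0.35 to 0.25 was the narrowest of the 9 genes. Before normalization between arrays the processed signals were 232217, 199268 and 148501 on si-Control arrays against 226427, 223538 and 160363 on si-C1GALT1-3 arrays, none of them saturated. Without that normalization its log2 fold change was 0.08 (SE 0.33), and with normexp background correction 0.14 (SE 0.20). The width of its interval therefore depends on the processing.

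**Figure D2:**
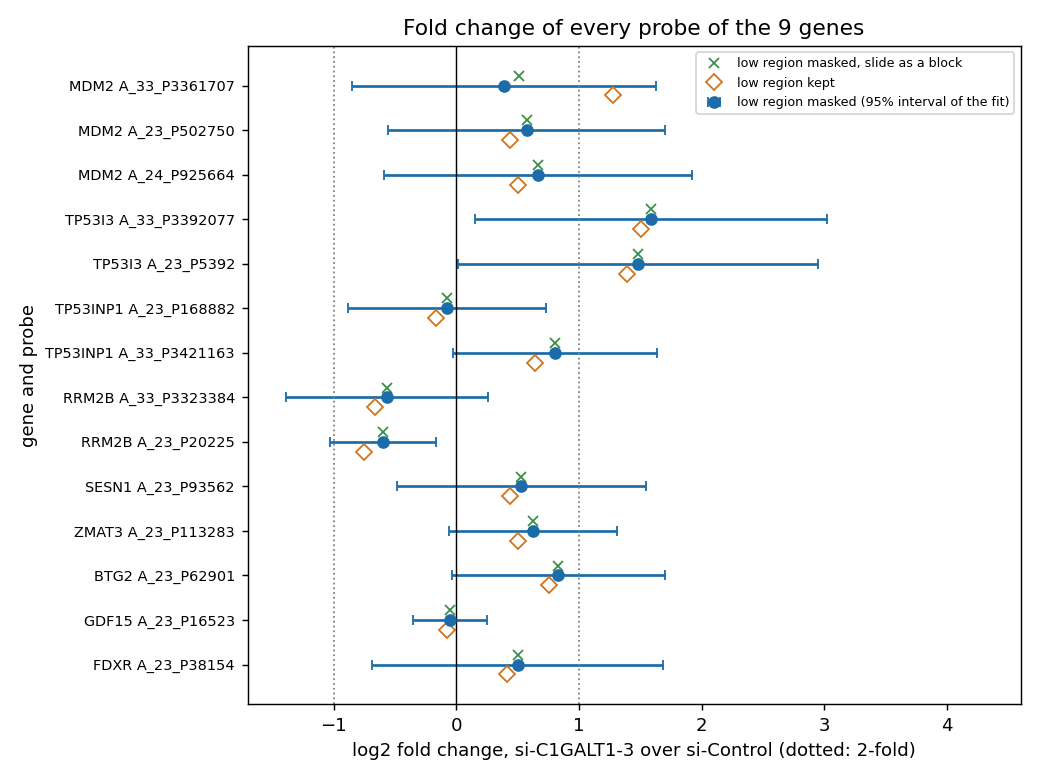
Log2 fold change of si-C1GALT1-3 over si-Control for each of the 14 probes (horizontal axis), with filled points and bars for limma's estimate and its 95% interval, crosses for the fit with the replicate (slide) as a block and open diamonds for the fit with the dark rectangle kept. The 2 TP53I3 probes, at 1.59 and 1.48, lie past the 2-fold line, and keeping the rectangle moves MDM2 A_33_P3361707 from 0.39 to 1.28.

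The arrays of slide 3 held the highest signal of their own group for many of these genes. Of the 8 genes with values on all arrays, replicate 3 was highest in both groups for 4, TP53I3, SESN1, BTG2 and FDXR, while this was so for 21.0% of all probes with values on all arrays. Within slides, si-C1GALT1-3 was above si-Control for 6 of 9 genes on slide 1, 6 of 8 on slide 2 and 7 of 9 on slide 3. Of all probes, 49.7%, 50.5% and 49.4% were higher on slides 1, 2 and 3. Over the 8 genes with values on all slides, the median differences were 0.56, 0.092 and 0.65 on slides 1, 2 and 3, and slide 2 showed the smallest. Among the 8 genes, TP53I3, SESN1, ZMAT3, BTG2 and FDXR were higher on each of the 3 slides, and RRM2B was lower on each. Over all probes with 3 values 22.3% were higher on each slide and 21.8% lower.

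**Figure D3:**
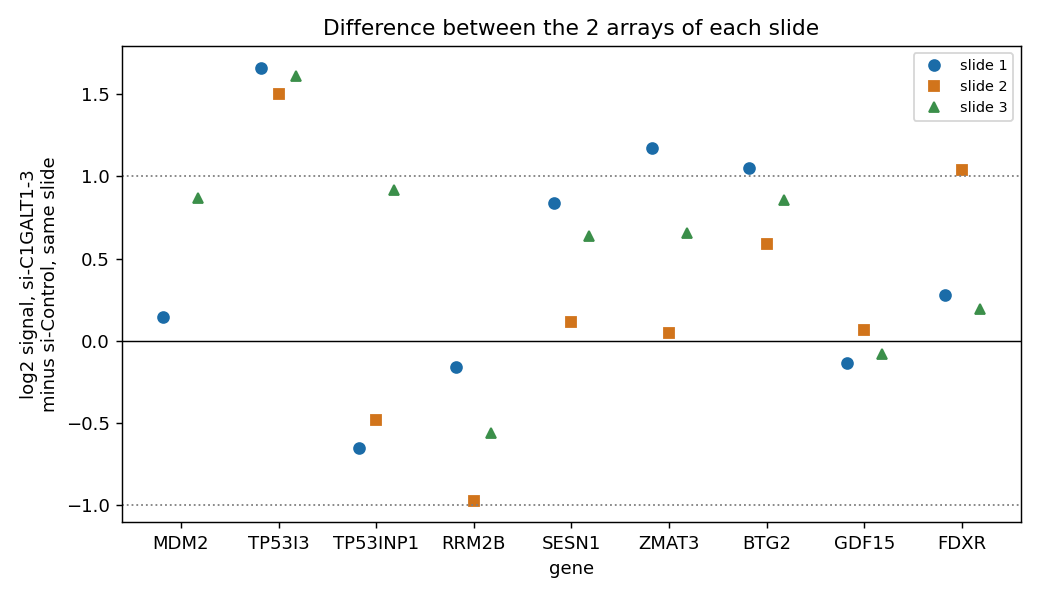
Difference in normalized log2 signal between the si-C1GALT1-3 array and the si-Control array of the same slide (vertical axis) for the brightest probe of each gene, with 1 symbol per slide. TP53I3 differs by 1.50 to 1.66 on all slides, and TP53INP1 lies below 0 on slides 1 and 2 and above it on slide 3.

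Of 16 genes that set the level or activity of p53, 6 were higher and 10 lower, and the median log2 fold change was -0.11. The count past p under 0.01 and 2-fold in limma was 0, where 1.65% of all probes passed higher and 0.992% lower, and groups were apart for 3 in the higher and 2 in the lower direction, beside 11.0% and 10.4% of all probes. MDM4, which binds and restrains p53, stood at -0.41 (SE 0.34), and at -0.19 without si-Control array 1 and -0.75 without si-Control array 3. PPM1D, the phosphatase that switches the response off, stood at 0.15 (SE 0.41). TP53BP1, a mediator of the DNA damage response, was at 0.50 (SE 0.13), and RCHY1, another p53 ubiquitin ligase, at -0.58 (SE 0.17).

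Among 40 further p53 targets, 27 were higher and 13 lower, with a median log2 fold change of 0.19. Past p under 0.01 and 2-fold were 3 higher and 0 lower, beside 1.65% and 0.992% of all probes. Groups were apart for 12 of the 40 in the higher direction and 1 in the lower, beside 11.0% and 10.4% of all probes. Counted by gene as the lists are, 466 of 22438 named genes passed higher and 299 lower. By the same count 3146 were apart higher and 2521 lower. The 1 lower gene, SPATA18, and EDA2R among the higher were well above background on none of the 6 arrays. DRAM1, a lysosomal membrane protein that promotes autophagy, rose. It read 10.96, 11.53 and 10.84 on si-Control arrays against 12.98, 12.79 and 12.46 on si-C1GALT1-3 arrays, a log2 fold change of 1.63 (SE 0.25, limma adjusted p = 0.0993). SUSD6 rose by 1.02 (SE 0.16) on 5 arrays, because its si-Control spot on array 2 lay in the dark rectangle, and its call was lost in 8 of 17 alternatives with a test, the replicate block and the fits without si-Control array 1 and without si-C1GALT1-3 array 2 among them. EDA2R, a receptor of the TNF receptor family, passed the test but stayed below the background flag on all 6 arrays, so no fold is given. Its call was lost in 5 of 16 alternatives with a test, 1 of them the fit without si-C1GALT1-3 array 1. With the replicate as a block 4 passed higher, DRAM1, EDA2R, BAX and PANK1, beside 1.74% of all probes.

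The best known effectors of arrest and apoptosis gave mixed values, none past the threshold in the comparison used throughout. CDKN1A, the p21 inhibitor of cyclin-dependent kinases, had a log2 fold change of 0.50 (SE 0.44), and of 0.067 without si-C1GALT1-3 array 3. BAX, which permeabilizes the mitochondrial outer membrane, read 12.75, 12.82 and 13.98 on si-Control arrays against 14.17, 14.09 and 14.65 on si-C1GALT1-3 arrays, a log2 fold change of 1.12 (SE 0.38, limma adjusted p = 0.296). The BAX groups were apart, and at least 1 of its spots lay in the dark rectangle. BAX passed in 4 of 17 alternatives, namely the replicate block, no normalization, normexp and the fit without si-Control array 3 (1.52), and the median over its probes was 0.77. BBC3, a BH3-only activator of apoptosis, stood at -0.01 and the death receptors FAS and TNFRSF10B at -0.27 and 0.10. Without single arrays FAS ran from -0.64 to -0.034, without si-C1GALT1-3 arrays 3 and 1, and TNFRSF10B from 0.039 to 0.15, without si-Control array 3 and si-C1GALT1-3 array 2. The nucleotide excision repair genes DDB2 and XPC stood at 0.06 and 0.22. CCNG1, SESN2, PHLDA3 and TIGAR had log2 fold changes of 0.60, 0.11, 0.09 and 0.89, that of PHLDA3 from 5 arrays because its spot also lay in the dark rectangle. Without si-Control array 1 CCNG1 stood at 0.37 and TIGAR at 0.47.

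Paralogues and partners of the 9 genes were measured for 15 of 16 listed. Of these 6 were higher and 9 lower, and the median log2 fold change was -0.23. The count past p under 0.01 and 2-fold in limma was 0, beside 1.65% and 0.992% of all probes. TP53INP2, the paralogue of TP53INP1 that acts in autophagy, stood at 0.83 and passed without si-Control array 3 (1.03). SESN3 stood at -0.30, and at -0.12 and -0.55 without si-Control arrays 1 and 2 in turn, and at -0.55 with the dark rectangle widened. BTG1 stood at -0.23, and at -0.11 and -0.39 without si-Control arrays 1 and 3 in turn. TOB1, of the same family as BTG2, stood at 0.98 (SE 0.26), just under 2-fold.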

How the data were processed

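The authors deposited Agilent Feature Extraction output (version 10.5.1.1) for each array, with fluorescence intensity per spot, corrected for background but not normalized between arrays. Log2 of the processed intensity was taken, control spots were left out, spots marked as outliers (100 to 424 per array) and rows 113 to 288, columns 59 to 115 of si-Control array 2 became missing values; quantile normalization over the 6 arrays and averaging of a probe's spots followed. Groups were compared with limma 3.58.1 (lmFit and eBayes, R 4.3.3), two-sided, with Benjamini-Hochberg adjustment over all 58193 probes tested. At an adjusted p under 0.05 there were 49 probes, none of them of the 9 genes. Of the probes that were changed in arrays simulated for this comparison (48794 probes), 30% with a log2 change of 1 and 86% with one of 2 passed. The simulated arrays were independent, without the shared slides. Passing needs an estimate of at least 2-fold, so a log2 change of 1 falls short in part of the draws at any precision.

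The members and lists were chosen with earlier results of these data known. Named are the members, C1GALT1, a preset choice of list genes and every list gene past the threshold; 1 preset gene is not reported here. TP53BP1, RCHY1, PANK1, SPATA18 and TOB1 were named after their values were seen. A planned list of genes alike in pattern to MDM2 is left out, since MDM2's brightest probe has values on 5 arrays. Same-numbered arrays share a slide, and their deviations from the group means correlated (r = 0.198, 0.215 and 0.329 for replicates 1, 2 and 3, over 48794 probes), so the numbers were taken as pairs and the replicate block was run as an alternative. For normexp the median spot signal was used. The series table of the authors holds background-subtracted intensity.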

Additional observations from a re-analysis of the deposited data

How the results depend on the processing

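The 9 genes were recomputed under 18 alternatives, and 1 of them, the wider mask, was chosen after seeing the data. The fit with the replicate block moved the members past the threshold from 0 to 1, TP53I3 (log2 fold change 1.59, limma adjusted p = 0.180). No normalization between arrays and normexp did so too, with 1 each. Of all probes, 1012 of 58190 passed higher with the block, 783 of 58193 without normalization and 497 of 58193 with normexp. No member passed lower in any of the 17 alternatives that give a test. Without single arrays the median of the 9 genes ran from 0.19 (without si-C1GALT1-3 array 3) to 0.69 (without si-Control array 3), and genes of the other p53 lists past the threshold ran from 2 (without either of si-C1GALT1-3 arrays 1 and 2, where 653 and 679 of all probes passed higher) to 6 (without si-Control array 3, where 1064 did). With the region kept that number was 1, where 474 of 58195 probes passed higher. C1GALT1 passed (-1.0) with dim probes left out. Of 1538 probes, 961 were higher (62.5%), against 40.2% of calls with the region kept, 72.6% without normalization, 53.5% with the 75th percentile (which moved the median of all probes to -0.11), 54.3% with normexp and 52.2% without si-Control array 1. Normexp called 915 probes, and a t-test used in place of limma called 896.

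Some directions turned. Without normalization these were TP53INP1 0.062, GDF15 0.080 and BBC3 0.077, with normexp TP53INP1 0.026, GDF15 0.14 and BBC3 0.043, and with the median over probes TP53INP1 0.37. DDB2 was -0.013 with the region kept and -0.015 in the series table. Without single arrays, MDM2 ran from -0.0034 to 0.69, TP53INP1 from -0.39 to 0.087, BBC3 from -0.087 to 0.10, DDB2 from -0.13 to 0.19, PHLDA3 from -0.29 to 0.47, PPM1D from -0.20 to 0.43 and SESN2 from -0.053 to 0.23. The cause was not tested.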
